A study of Mus musculus with 1536 samples.

Results

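Extracellular matrix and matricellular genes were described in lymphatic endothelial cells (LECs) of the mouse nasopharynx. The set held 42 genes, chosen by symbol from the 23168 genes of the adult expression matrix, and all 42 were found there by name. By role they were 14 genes of the basement membrane, 9 of elastic fibres and microfibrils, 5 interstitial collagens, 3 proteoglycans and 11 matricellular or adhesive proteins. No cut on level was used to choose them, but they were chosen with earlier results of these data known. *Fndc1* also served as a gate on cells.

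The cells were CD31+ PDPN+ endothelial cells sorted from the nasopharyngeal mucosa of untreated c57bl/6 mice aged 10 to 12 weeks. Mucosa was pooled over 30 animals, male and female, and single cells were sequenced by Smart-seq3, a plate-based full-length method. The matrix held about 840 cells. Neither mouse nor plate was given for a cell, so all cells counted as 1 sample, no test between cells was possible, and each SD describes the spread over these cells alone.

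The basement membrane is a thin sheet on which endothelial cells rest. It is built from laminins, which are trimers of an α, a β and a γ chain, and from a network of type IV collagen, linked by nidogens and the heparan sulfate proteoglycan perlecan. Initial lymphatics are known for a discontinuous basement membrane and for anchoring filaments, microfibrils that tie the cells to the elastic fibres around them, whereas collecting vessels have a fuller one. Matricellular proteins such as thrombospondins, tenascins and SPARC are secreted into the matrix and modify adhesion and growth factor signals more than they bear load.

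Cells were grouped by a natural-log expression value above 1 for exactly 1 of 3 genes. *Stab2* encodes a scavenger receptor for hyaluronan, *Fndc1* a protein with fibronectin type III domains, and *Cldn11* a tight junction protein found in lymphatic valves. Of the cells, 27.6% were Stab2-high (about 230), 13.2% Fndc1-high (about 110), 12.9% Cldn11-high (about 110) and 40.3% above the gate for none (the rest, about 340), while 51 cells above it for more than 1 gene were left out of group comparisons. The gates cut a continuous range, and 60, 50 and 87 cells lay within 0.25 of the gate for *Stab2*, *Fndc1* and *Cldn11*. Shares of cells are also given after thinning each cell to 20000 reads, which left out 15 Stab2-high, 7 Fndc1-high and 3 Cldn11-high cells and 24 of the rest as too shallow.

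The lymphatic endothelial label was checked against markers. Reads of *Prox1*, the transcription factor of lymphatic identity, were found in 97.7% of cells, of *Flt4* in 99.8%, of *Cdh5* in 99.2%, of *Pdpn* in 95.2% and of *Lyve1* in 86.8%. The cells were sorted on PDPN, so *Pdpn* is no independent check. The highest summed level per 10000 was 16.8 for mural markers (Fndc1-high), 22.8 for Schwann markers (Stab2-high) and 8.28 for epithelial markers (Fndc1-high). The median was 0 in each group for these 3 lists. *Ptprc* of immune cells and *Col2a1* and *Sox9* of cartilage had no read in any cell, which allows a share of up to 0.356%. Of the other 4 immune markers, *Cd68* was read in 15.7% of cells, *Lyz2* in 7.96%, *Cd52* in 1.43% and *Tyrobp* in 0.356%. The summed immune markers ran from 0 to 273.1 reads per 10000 in the rest and to 9.65, 4.54 and 15.1 at most in Stab2-high, Fndc1-high and Cldn11-high cells. *Lyz2* reached 250.3 in 1 cell of the rest, and its log2 ratios to the rest were -2.24, -2.56 and -1.31. The rest is the reference of every comparison, and without the 77 cells with reads of *Lyz2*, *Cd52* or *Tyrobp* the counts of matrix genes given below were the same, with *Tnc* (1.0) in place of *Fbln2* (0.99) in Stab2-high cells. Reads per cell ran from 7433 to 3524358 with a median of 350746, and the group medians were 358024 (Stab2-high), 524161 (Fndc1-high), 381490 (Cldn11-high) and 326024 (rest). In 52 wells, *Xist* was read together with genes of the Y chromosome.

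Promoters are shown for *Fndc1*, *Tnxb* and *Tgfbi*, because *Fndc1* and *Tnxb* were the pair of matrix genes most alike over cells and *Tgfbi* was, with *Tnxb*, the other matrix gene higher in the cells gated on *Fndc1*. *Fndc1* (chr17:7738569-7827302, minus strand) and *Tnxb*, which encodes tenascin-X (chr17:34670535-34719815, plus strand), lie far apart on the same chromosome, and *Tgfbi* (chr13:56609523-56639562, plus strand) on another. Each line gives bases before the RefSeq start on GRCm38.p6, read 5′ to 3′ on the strand of the gene, namely chr17:7827303-7827552 for *Fndc1*, chr17:34670285-34670534 for *Tnxb* and chr13:56609336-56609522 for *Tgfbi*, where 63 bases next to the start were left out because an annotated exon covers them. Capitals mark matches, on either strand, to TATAAA for the TATA box, GGGCGG for the GC box, CCAAT for the CCAAT box, TGANTCA for the AP-1 site or GGAATG for the TEAD site.
Fndc1: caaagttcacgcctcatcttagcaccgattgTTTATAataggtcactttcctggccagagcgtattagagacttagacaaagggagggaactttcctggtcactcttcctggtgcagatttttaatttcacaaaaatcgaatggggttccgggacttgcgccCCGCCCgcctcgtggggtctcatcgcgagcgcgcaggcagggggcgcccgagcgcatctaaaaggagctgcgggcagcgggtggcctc
Tnxb: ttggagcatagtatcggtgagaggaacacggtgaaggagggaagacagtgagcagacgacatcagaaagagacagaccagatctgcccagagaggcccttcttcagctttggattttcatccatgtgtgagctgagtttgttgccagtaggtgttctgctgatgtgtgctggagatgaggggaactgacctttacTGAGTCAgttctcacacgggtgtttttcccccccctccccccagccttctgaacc
Tgfbi: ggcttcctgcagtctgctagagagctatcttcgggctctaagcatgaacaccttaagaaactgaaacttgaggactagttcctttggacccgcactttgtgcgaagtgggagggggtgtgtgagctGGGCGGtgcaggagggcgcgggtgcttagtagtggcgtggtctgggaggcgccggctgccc

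The capitals in the *Fndc1* promoter are a TATA box match far upstream and a GC box match 88 bases before the start, both on the opposite strand. *Tnxb* held an AP-1 site match 55 bases before the start and *Tgfbi* a GC box match further upstream, and no motif was found in all 3 stretches. Among 32851 RefSeq promoters, 12.4% held TATAAA, 32.7% GGGCGG, 33.8% CCAAT, 6.75% TGANTCA and 12.6% GGAATG within 250 bases before the start. Of the 42 matrix genes, 30 had a promoter entry, with 38 promoters between them. Of these 38 promoters, 22 held GGGCGG, 11 CCAAT, 6 TATAAA, 4 GGAATG and 3 TGANTCA. Counted by gene, with a match in any promoter, 19 of the 30 held GGGCGG, 11 CCAAT, 5 TATAAA, 4 GGAATG and 3 TGANTCA. A match is a run of letters and was not tested as a binding site.

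Transcripts of the matrix genes took 1.39% ± 0.494 (SD over all cells) of the reads of a cell, from 0.236% to 3.71%. Between 10 and 31 of the 42 genes were found in a cell, with a median of 22. Of the 42 genes, 24 had reads in at least 50% of cells, against 12.6% of all 23168 genes. Fndc1-high cells spent 1.66% ± 0.609 of their reads on these genes and Stab2-high cells 1.54% ± 0.443, compared with 1.26% ± 0.432 in the rest and 1.16% ± 0.432 in Cldn11-high cells. Each gated group's mean lay within 1 SD over cells of that of the rest. The 42 genes include the gate gene *Fndc1*, so part of the higher share in Fndc1-high cells was set by the gate itself. The share without *Fndc1* was not computed.

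Levels were compared between genes as mean reads per 10000 per kilobase of exon. *Mmrn1*, which encodes multimerin 1, a large secreted glycoprotein of the EMILIN family, was highest at 6.37. *Ltbp4*, whose product binds latent TGF-β and helps to assemble elastic fibres, followed at 2.87, and *Sparc*, a collagen-binding matricellular protein, at 1.79. *Fbln5*, which links elastic fibres to integrins, stood at 1.54, *Mmrn2*, another EMILIN family member of endothelium, at 1.05 and the small proteoglycan gene *Bgn* (biglycan) at 1.0. The 10 highest were completed by *Tgfbi* at 0.814, *Thbs1* (thrombospondin 1) at 0.660, *Fbln2* (fibulin 2) at 0.652 and *Col4a1* (a type IV collagen chain) at 0.556. *Mmrn1* alone held 26.9% of all reads on matrix genes, and with *Ltbp4*, *Fbln5* and *Sparc* the share was 52.7%.

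**Figure D1:**
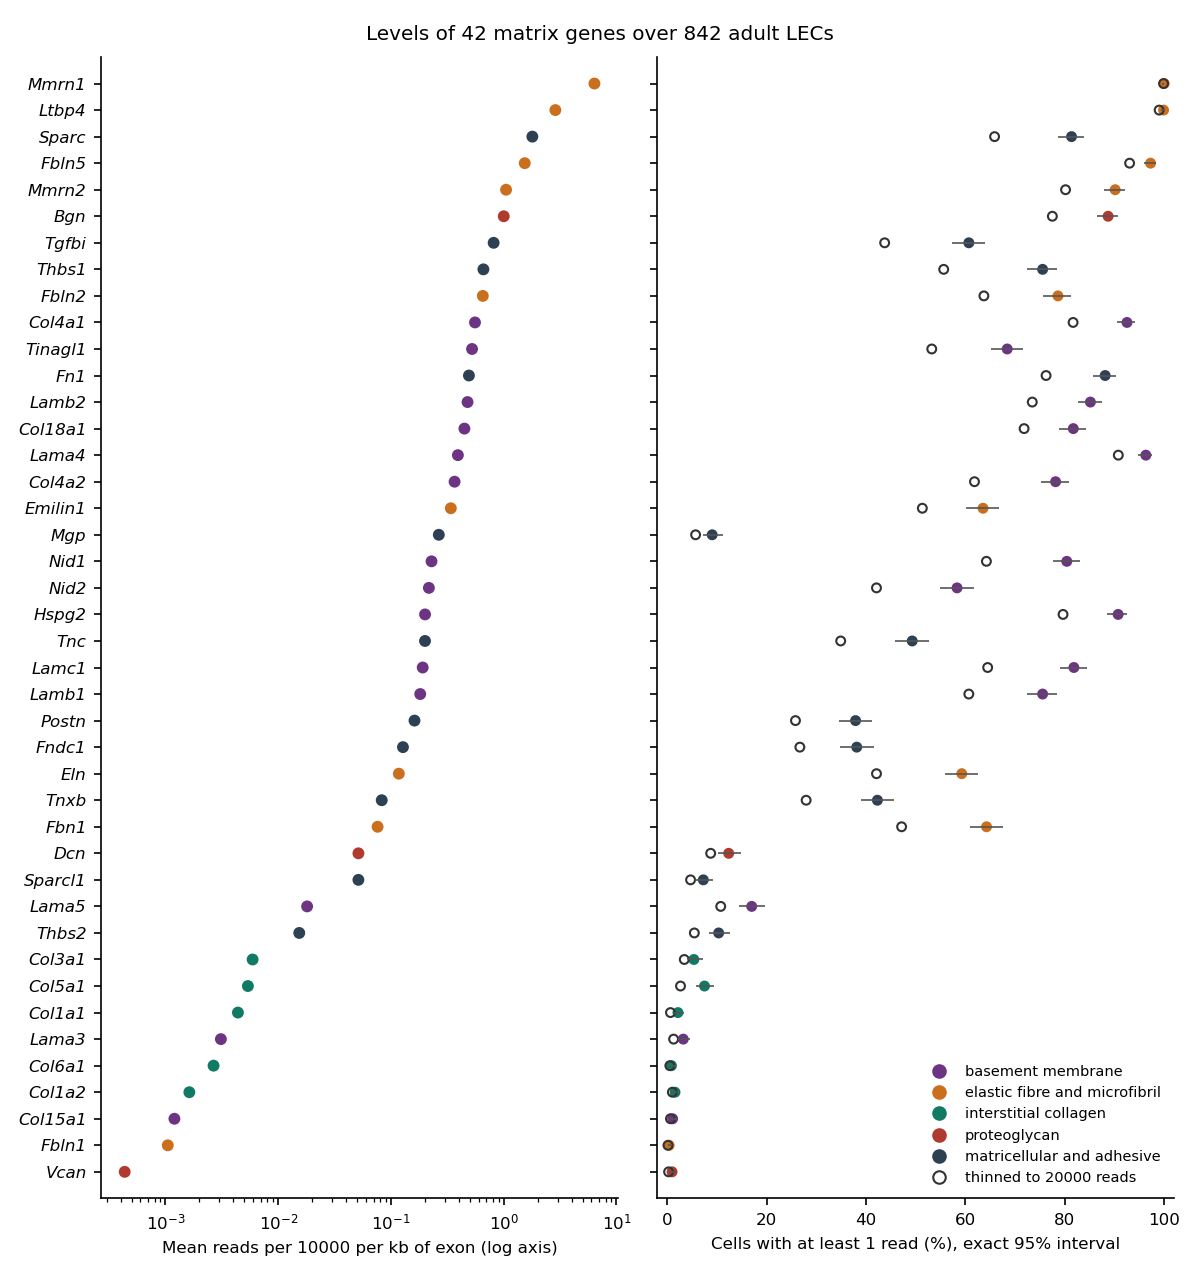
Mean level of each of the 42 matrix genes in reads per 10000 per kilobase of exon (left, log axis) and percentage of all cells with at least 1 read (right, filled points with exact 95% intervals, open points after thinning to 20000 reads), coloured by role. *Mmrn1* and *Ltbp4* are highest at 6.37 and 2.87, while the interstitial collagens lie at the foot of both panels.

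The basement membrane genes were widely found, with 11 of 14 in at least 50% of cells. Among laminin chains, *Lama4* (α4) was found in 96.3% of cells, the β chains *Lamb2* in 85.2% and *Lamb1* in 75.5%, and the γ chain *Lamc1* in 81.8%. *Lama4*, *Lamc1* and at least 1 of the β chains were read together in 75.9% of cells (exact 95% interval 72.9 to 78.7). The levels per kilobase were 0.392 for *Lama4*, 0.477 for *Lamb2*, 0.182 for *Lamb1* and 0.191 for *Lamc1*. *Lama5* (α5) was lower at 0.0180 and was found in 17% of cells, and *Lama3* (α3) in 3.21%. Of these 3 α chains, α4 thus had the highest level.

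Type IV collagen was represented by *Col4a1*, found in 92.5% of cells, and *Col4a2*, found in 78.1%, and both were read in 73.8% of cells (70.6 to 76.7). The linker nidogens *Nid1* and *Nid2* were found in 80.4% and 58.3% of cells, and at least 1 of them in 91.6% (89.5 to 93.4). *Hspg2* (perlecan) was found in 90.7% of cells. *Col18a1*, the source of endostatin, was found in 81.7% of cells at 0.448 per kilobase, whereas *Col15a1*, its close relative, was found in 9 cells (1.07%, 0.490 to 2.02). *Tinagl1*, a secreted basement membrane glycoprotein, was found in 68.4% of cells at 0.524 per kilobase.

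The 9 genes grouped here under elastic fibres and microfibrils took 56.3% of the reads on matrix genes, a share not corrected for gene length. The group includes the EMILIN family members *Mmrn1* and *Mmrn2*. *Mmrn1* alone held 26.9% of the reads on matrix genes and *Mmrn2* 2.99%, against 0.682% for *Eln* and 0.662% for *Fbn1*. *Mmrn1* was found in every cell and *Ltbp4* in 99.9%. *Fbln5* was found in 97.3% of cells, *Mmrn2* in 90.1%, *Fbln2* in 78.6% and *Emilin1*, an elastin-associated glycoprotein, in 63.5%. The structural components themselves, *Eln* (elastin) and *Fbn1* (fibrillin 1), were found in 59.3% and 64.3% of cells at 0.117 and 0.0760 per kilobase, below *Fbln5* and *Ltbp4*. *Eln*, *Fbn1* and *Fbln5* were read together in 41.4% of cells (38.1 to 44.9). *Fbln1* (fibulin 1) stood apart from its relatives, with reads in 3 cells.

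*Mmrn1* had a mean of 37.4 reads per 10000 over all cells. Its lowest, median and highest values per cell were 10.7, 43.2 and 132.5 in Fndc1-high cells, 2.72, 35.5 and 111.7 in Stab2-high cells, 0.315, 30.8 and 147.3 in the rest and 1.03, 24.7 and 98.3 in Cldn11-high cells. The groups overlapped over most of their range. *Ltbp4* had medians of 25.8 in Fndc1-high cells, 15.4 in the rest, 12.5 in Stab2-high cells and 12.2 in Cldn11-high cells, and its log2 ratio to the rest in Fndc1-high cells was 0.71.

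Fibrillar collagen transcripts were rare. *Col1a1*, *Col1a2* or *Col3a1*, the chains of types I and III collagen, had reads in 68 cells (8.08%, 6.33 to 10.1), and by gene in 2.14%, 1.54% and 5.34% of cells. *Col5a1* was found in 7.48% of cells and *Col6a1* in 0.831%. The share of cells with a fibrillar collagen read was 7.33% (4.33 to 11.5) in Stab2-high cells, 9.91% (5.05 to 17) in Fndc1-high cells, 5.50% (2.05 to 11.6) in Cldn11-high cells and 8.26% (5.56 to 11.7) in the rest, so the intervals overlapped. These intervals cover counting error only.

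Reads of fibroblast markers moved with some of these genes. At least 1 of 5 markers (*Pdgfra*, *Dpt*, *Lum*, *Pi16*, *Col14a1*) was read in 46 cells (5.46%, 4.03 to 7.22), and at least 2 in 2 cells. Among the 18 cells with *Col1a1* reads the share with a marker was 27.8% (9.69 to 53.5), against 4.98% (3.59 to 6.69) in cells without. For *Col3a1* the shares were 8.89% (2.48 to 21.2) and 5.27% (3.82 to 7.06), and for *Col1a2* 23.1% (5.04 to 53.8) and 5.19% (3.78 to 6.92). Of cells with *Mgp* reads 14.5% (7.45 to 24.4) held a marker, against 4.57% (3.20 to 6.30) of those without. For *Dcn* the shares were 6.73% (2.75 to 13.4) and 5.28% (3.78 to 7.15). The part of such RNA in these reads was not tested.

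Of the 42 genes, 7 were found in under 5% of cells, namely *Lama3*, *Col15a1*, *Fbln1*, *Col1a1*, *Col1a2*, *Col6a1* and *Vcan*, and no ratio between groups was taken for them. *Lama3*, which encodes a laminin chain better known from epithelia, was unevenly placed among these. It had reads in 19 Stab2-high cells (8.19%, 5.0 to 12.5), in 1 Fndc1-high cell (0.901%, 0.0228 to 4.92), in 1 Cldn11-high cell (0.917%, 0.0232 to 5.01) and in 1 cell of the rest (0.295%, 0.00747 to 1.63). After thinning, 3.69% of Stab2-high cells and 0 cells of the other 3 groups had a read. Most cells with *Lama3* reads were thus Stab2-high, at a group mean of 0.113 per 10000. *Vcan* (versican), a large hyaluronan-binding proteoglycan, was found in 8 cells.

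Group means were compared as the log2 ratio of mean reads per 10000 to that of the rest, with 0.1 added to both. A gene was called higher or lower at a log2 ratio of 1 or more in either direction, over 11570 genes found in at least 5% of cells, of which 34 were matrix genes once the gate gene *Fndc1* was set aside. With 1 sample these ratios have no replicate check, and all 3 comparisons share the same rest cells.

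In Stab2-high cells, transcripts of 5 matrix genes were higher than in the rest and those of 3 were lower. Across all genes 1.2% were higher and 1.42% lower by the same rule. *Thbs1*, *Sparcl1*, *Sparc*, *Nid2* and *Fbln2* were higher, and *Tgfbi*, *Postn* and *Lamb1* lower. The median log2 ratio was 0.09 over the 34 genes and 0.03 over all genes compared. By role, the 8 genes were 5 of 10 matricellular and adhesive genes, 2 of 12 basement membrane genes and 1 of 8 elastic fibre genes. With a pseudocount of 1 *Sparcl1*, *Nid2*, *Fbln2*, *Postn* and *Lamb1* came within the bound, at 0.50, 0.73, 0.89, -0.77 and -0.72.

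*Thbs1*, which encodes an adhesive glycoprotein that restrains angiogenesis and can activate latent TGF-β, had lowest, median and highest values of 0, 5.44 and 58.2 reads per 10000 in Stab2-high cells and of 0, 0.138 and 34.6 in the rest. The distributions overlapped, yet the median of the Stab2-high cells lay above the third quartile of the rest, 2.18. Means were 9.65 ± 11.4 (SD over cells) and 1.94 ± 4.04, a log2 ratio of 2.26. *Thbs1* was found in 93.1% of Stab2-high cells, in 67.8% of the rest, in 73% of Fndc1-high cells and in 64.2% of Cldn11-high cells, and after thinning in 85.3%, 46.3%, 37.5% and 35.8%.

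*Sparc* had a median of 11.9 in Stab2-high cells, from 0 to 73.5, and of 1.92 in the rest, from 0 to 43.3. Fndc1-high cells had a median of 0.0424 and Cldn11-high cells of 0.523. Every group held cells at 0 and cells with high values. The means of 15.4 ± 13.9 and 4.21 ± 6.64 gave a log2 ratio of 1.85. *Sparcl1*, its relative (also named hevin), was sparse, with reads in 15.1% (10.7 to 20.4) of Stab2-high cells and 4.13% (2.28 to 6.83) of the rest, in 12.9% and 2.22% after thinning, and a log2 ratio of 2.01. That ratio rested on few cells, with 33.6% of its level in Stab2-high cells and 67.2% of that in the rest held by 3 cells each, and it ran from 0.22 to 3.22 over 16 other settings.

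*Fbln2* had a median of 5.20 in Stab2-high cells and 0.733 in the rest, with highest values of 35.5 and 67.4, so the single highest cell was not Stab2-high. Its means of 6.91 ± 6.77 and 3.26 ± 6.07 gave a log2 ratio of 1.06. *Nid2* was found in 71.6% of Stab2-high cells and 51.3% of the rest (60.8% and 33.3% after thinning), with means of 1.90 ± 2.73 and 0.754 ± 1.62 and a log2 ratio of 1.23, whereas the ratio of its paralogue *Nid1* was -0.05. *Thbs1*, *Sparc* and *Fbln2* were read together in 81.5% of Stab2-high cells (75.9 to 86.2) and in 45.7% of the rest (40.3 to 51.2). *Tnc* (tenascin-C), at a log2 ratio of 0.99, lay just within the bound.

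Among the genes that were lower, *Tgfbi*, which encodes an integrin-binding protein induced by TGF-β, was found in 43.5% of Stab2-high cells against 63.4% of the rest, and after thinning in 25.8% against 46.7%. Its highest values were 15.4 and 63.9, and its means of 0.968 ± 2.55 and 3.04 ± 6.71 gave a log2 ratio of -1.56. *Postn* (periostin), a related matricellular protein, was found in 23.3% and 40.4% of cells (12% and 27.9% after thinning), with a ratio of -1.44. *Lamb1* was found in 57.8% and 80.8% of cells (37.3% and 66.3% after thinning) with a ratio of -1.19, while the other β chain, *Lamb2*, had a ratio of -0.02. *Fn1* (fibronectin) was lower within the bound, at a ratio of -0.83 and medians of 0.861 and 3.98.

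Blood endothelial markers were read beside these values. *Emcn* was found in 94.2% of all cells, *Plvap* in 77.8%, *Selp* in 33.3%, *Sox17* in 4.99% and *Flt1* in 2.49%, and their summed level ran from 0 to 57.4 reads per 10000 in Stab2-high cells and from 0 to 34.9 in the rest. Their log2 ratios in Stab2-high cells were 1.20 for *Plvap* and 1.82 for *Selp* but -0.33 for *Emcn*, the most abundant, and 0.97 and -0.12 for the sparse *Sox17* and *Flt1*. Without the 61 cells holding reads of *Flt1* or *Sox17* the ratio of *Fbln2* was 0.99, under the bound, and that of *Tnc* was 1.0.

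**Figure D2:**
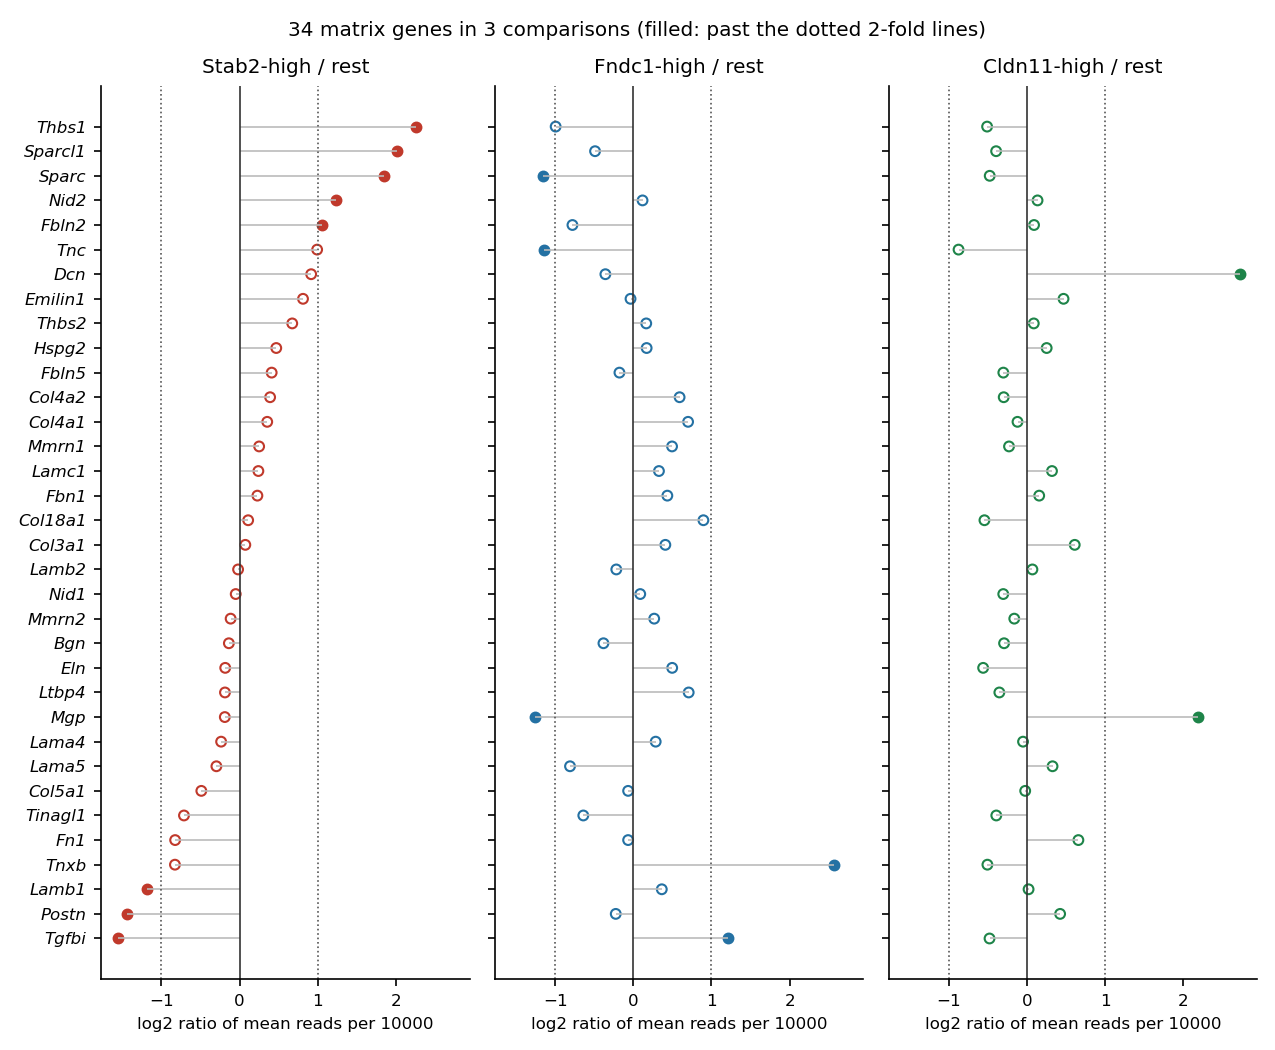
Log2 ratio of mean reads per 10000 in each gated group to that in the rest for 34 matrix genes, 1 line per gene in the order of the Stab2-high comparison, with dotted lines at -1 and 1 and filled points beyond them. *Thbs1* (2.26) and *Sparc* (1.85) lie far right in the first panel, *Tnxb* (2.57) in the second and *Dcn* (2.73) in the third.

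In Fndc1-high cells, *Tnxb* and *Tgfbi* were higher than in the rest, and *Mgp*, *Sparc* and *Tnc* were lower. Of all genes 0.553% were higher and 0.717% lower by the same rule, and the median log2 ratio was 0.10 over the 34 genes and -0.01 over all genes compared. None of the 12 basement membrane genes and none of the 8 elastic fibre genes passed the bound, and the 5 called genes were all of the matricellular group. With a pseudocount of 1 the 3 lower genes came within the bound, at -0.23 for *Mgp*, -0.88 for *Sparc* and -0.58 for *Tnc*.

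*Tnxb*, which encodes tenascin-X, an organiser of collagen fibrils, had lowest, median and highest values of 0, 2.13 and 26.8 in Fndc1-high cells and of 0, 0 and 15.2 in the rest. It was found in 81.1% (72.5 to 87.9) of Fndc1-high cells, 40.7% of the rest, 40.4% of Cldn11-high cells and 25.9% of Stab2-high cells, and after thinning in 70.2%, 25.4%, 23.6% and 12.4%. The means of 4.19 ± 5.09 and 0.623 ± 1.61 gave a log2 ratio of 2.57. Exons of *Tnxb* overlap *Cyp21a2-ps* on the other strand, as do those of *Thbs1*, *Nid2* and *Tnc* with *Gm29233*, *Rtraf* and *8030451A03Rik*, and whether the counting used strand is not given in the sources used here.

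*Tgfbi* had a median of 3.17 in Fndc1-high cells and 0.1002 in the rest, with highest values of 52.5 and 63.9. Its means of 7.20 ± 9.44 and 3.04 ± 6.71 gave a log2 ratio of 1.21. *Tnxb* and *Tgfbi* were read together in 72.1% of Fndc1-high cells (62.8 to 80.2), in 31% (26.1 to 36.2) of the rest and in 15.9% (11.5 to 21.3) of Stab2-high cells. *Tgfbi* thus had its lowest mean in Stab2-high cells and its highest in Fndc1-high cells.

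*Sparc* was lowest where *Tgfbi* was highest, with means of 1.83 ± 4.85 in Fndc1-high cells, 3.0 ± 4.77 in Cldn11-high cells, 4.21 in the rest and 15.4 in Stab2-high cells, though Cldn11-high cells lay below the rest for both genes. It had a log2 ratio of -1.16 for Fndc1-high cells. *Tnc* was found in 32.4% of Fndc1-high cells against 47.8% of the rest, at a ratio of -1.14. *Mgp* (matrix Gla protein, an inhibitor of calcification) was found in 8.11% (3.77 to 14.8) and 7.96% (5.31 to 11.4) of cells, or 0.962% and 5.08% after thinning, so its ratio of -1.26 rested on few values, the highest being 2.18 in Fndc1-high cells and 21.3 in the rest. *Thbs1* had a ratio of -0.99.

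The 12 basement membrane genes compared had a median log2 ratio of 0.23 in Fndc1-high cells, all within the bound. *Col18a1* and *Col4a1* had the highest ratios, 0.90 and 0.70, whereas *Lama5*, *Tinagl1* and *Lamb2* had ratios of -0.81, -0.64 and -0.22. *Col4a1* was found with *Col4a2* in 90.1% (83 to 94.9) of Fndc1-high cells and 69.9% (64.7 to 74.7) of the rest. The 14 basement membrane genes summed to 34.4 ± 15.3 reads per 10000 in Fndc1-high cells and 27.6 ± 12 in the rest, a difference under 1 SD. The median depth of Fndc1-high cells was also the highest of the groups, and after thinning *Col4a1* was found in 91.3% of them and 78.1% of the rest.

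**Figure D3:**
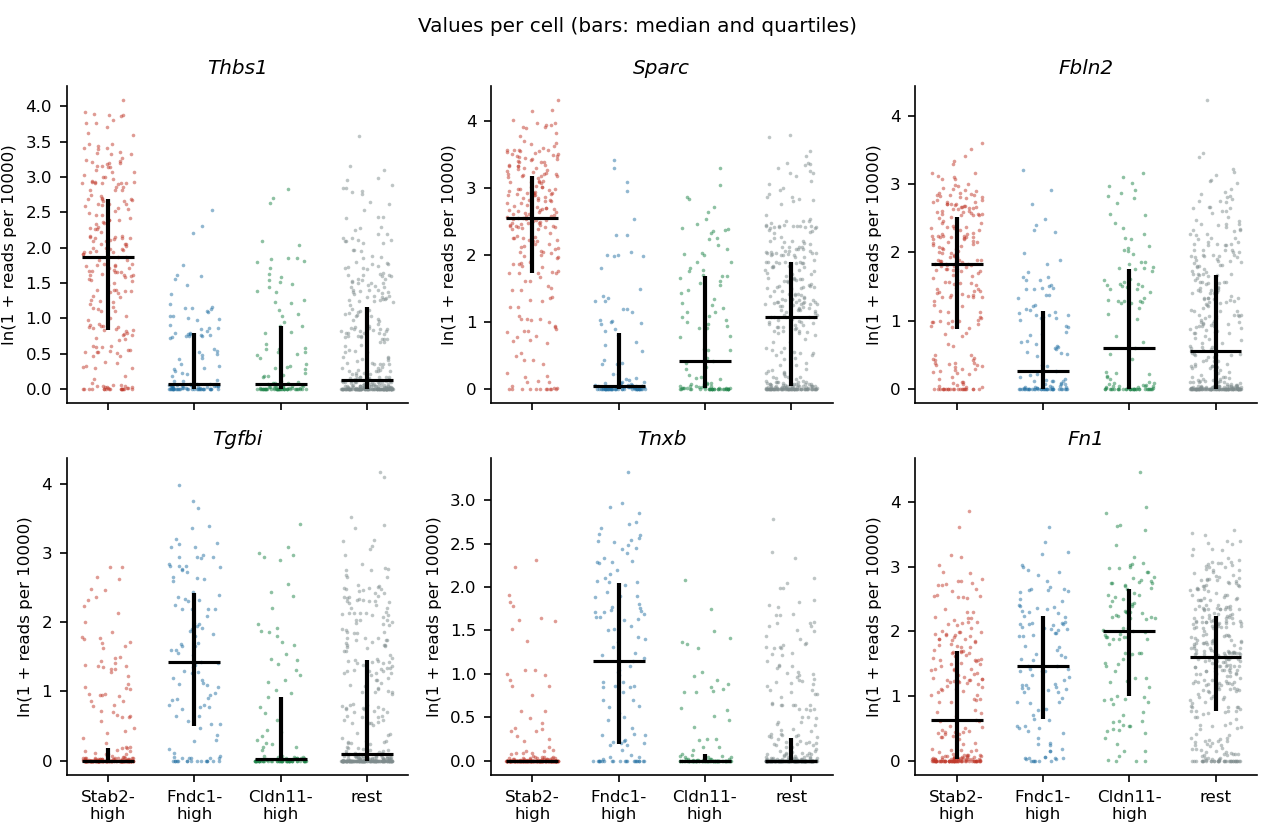
Natural log of 1 plus reads per 10000 in each cell for 6 matrix genes by group, 1 point per cell, with bars for the median and quartiles. The distributions overlap for every gene, with the medians of *Thbs1*, *Sparc* and *Fbln2* highest in Stab2-high cells and those of *Tgfbi* and *Tnxb* highest in Fndc1-high cells.

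In Cldn11-high cells, *Dcn* (decorin, a small proteoglycan that binds collagen) and *Mgp* were higher than in the rest and 0 matrix genes were lower. Of all genes 0.441% were higher and 0.337% lower by the same rule, and the median log2 ratio was -0.09 over the 34 genes and -0.03 over all genes compared. Both ratios rested on few cells. The 3 highest cells held 89.6% of the *Dcn* level and 86.3% of the *Mgp* level of the group.

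*Dcn* was found in 17.4% (10.8 to 25.9) of Cldn11-high cells and 10.03% (7.05 to 13.7) of the rest, or 13.2% and 5.40% after thinning, with highest values of 97.2 and 5.98, means of 1.26 ± 9.56 and 0.105 ± 0.549 and a log2 ratio of 2.73. *Mgp* was found in 11.9% (6.51 to 19.5) and 7.96% of cells, or 8.49% and 5.08% after thinning, with highest values of 70.6 and 21.3 and a ratio of 2.18. The highest value of each came from 1 cell of 24063 reads, which also held 20.8 reads per 10000 of *Col1a1*, 31.6 of the fibroblast marker *Dpt* and 8.31 of *Prox1*. Without cells holding at least 2 fibroblast markers the means in Cldn11-high cells were 0.371 and 0.608. The summed fibroblast markers ran from 0 to 39.9 in Cldn11-high cells and from 0 to 5.13 in the rest. Without the 2 highest cells of each gene in each group neither gene was past the bound.

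**Figure D4:**
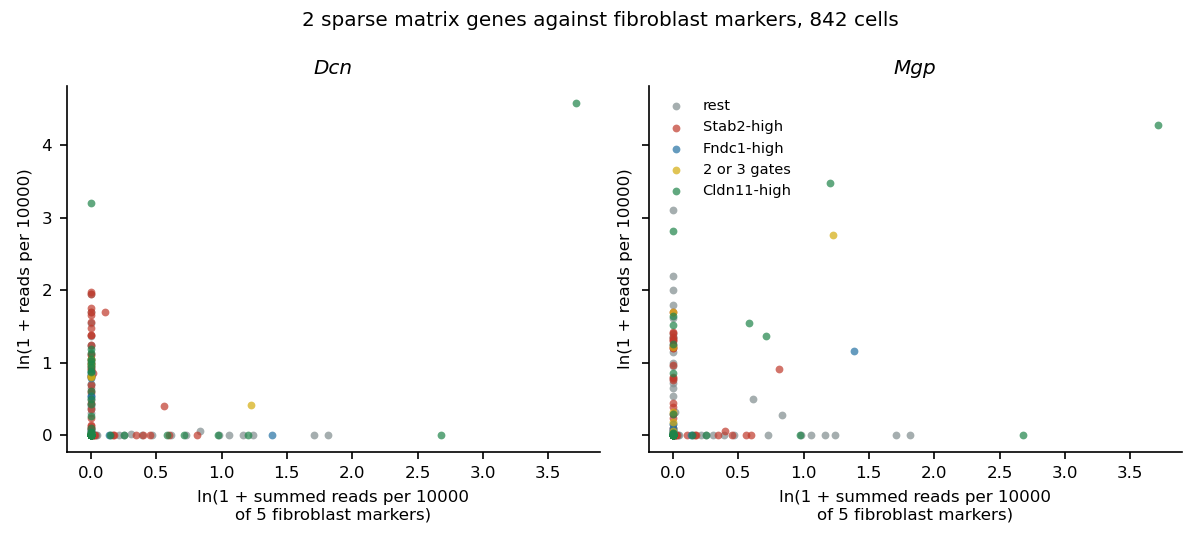
Natural log of 1 plus reads per 10000 of *Dcn* (left) and *Mgp* (right) against that of the summed 5 fibroblast markers, 1 point per cell, coloured by group. The Cldn11-high cell of 24063 reads stands at the upper right of both panels, and most other cells lie on the axes.

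*Fn1*, the main adhesive glycoprotein of provisional matrix and of lymphatic valve leaflets, differed more broadly over the cells. Its median was 6.48 in Cldn11-high cells, 3.98 in the rest, 3.30 in Fndc1-high cells and 0.861 in Stab2-high cells, and it was found in 97.2% (92.2 to 99.4), 90.3% (86.6 to 93.2), 94.6% (88.6 to 98) and 76.7% (70.7 to 82) of these cells, and after thinning in 91.5%, 82.5%, 83.7% and 55.8%. The means of 9.62 ± 11.9 and 6.06 ± 6.67 in Cldn11-high cells and the rest gave a log2 ratio of 0.66, within the bound. *Lama5* was found in 25.7% (17.8 to 34.9) of Cldn11-high cells and 18.9% (14.9 to 23.5) of the rest, at a ratio of 0.33. *Postn* had its highest mean in Cldn11-high cells, 2.19 ± 3.79, at a ratio of 0.42. Beside the gate gene, 5 valve markers were compared, and 0 passed the bound in Cldn11-high cells. Their log2 ratios were 0.37 for *Gata2*, 0.16 for *Itga9*, 0.13 for *Gja4*, 0.05 for *Nfatc1* and -0.30 for *Foxc2*. Whether the Cldn11-high cells were valve cells was not tested.

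Over the 34 genes compared, the highest group mean was in Fndc1-high cells for 14, in Stab2-high cells for 10, in Cldn11-high cells for 7 and in the rest for 3. The lowest was in Fndc1-high cells for 11, in Cldn11-high cells for 9, in Stab2-high cells for 8 and in the rest for 6. *Bgn* and *Tinagl1* were among the 3 highest in the rest, with means of 6.76 ± 7.16 and 2.89 ± 3.93. Of all genes compared, 33% had their highest mean in Stab2-high cells, 27.3% in Fndc1-high cells, 22.5% in Cldn11-high cells and 17.2% in the rest. The lowest mean was in Fndc1-high cells for 28.4% of them, in Cldn11-high cells for 30.8%, in Stab2-high cells for 23.6% and in the rest for 17.1%. For 29 of the 34 genes (85.3%) every pair of neighbours in the order of group means differed by less than the smaller of their SDs over cells. The share was higher over all genes compared, at 98.6%.

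Other genes of the matrix were read from lists of 6 kinds, in which 1 call is a large share of a short list and the shares over all genes were those given above. Of other basement membrane genes, 8 were compared, and *Npnt* (nephronectin, an integrin ligand) was higher in Stab2-high cells at 0.910 against 0.154 reads per 10000 in the rest, a log2 ratio of 1.99. *Npnt* was lower in the other gated groups, at ratios of -1.33 in Fndc1-high and -1.15 in Cldn11-high cells. From the same list, *Col4a5* (another type IV collagen chain) was lower in Stab2-high cells at -1.18 and *Smoc1* higher in Cldn11-high cells at 1.06. Of 10 other matrix glycoproteins, *Comp* (thrombospondin 5) was lower in Stab2-high cells, at a ratio of -2.05, *Thbs3* higher in Fndc1-high cells at 1.04 and *Matn2* (matrilin 2) higher in Cldn11-high cells at 1.07. Of 2 other proteoglycans, *Srgn* (serglycin) had ratios of 1.61, -1.41 and 1.68 in Stab2-high, Fndc1-high and Cldn11-high cells, and neither of 2 other collagens passed the bound.

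Among 16 matrix-modifying enzymes, 1 was higher and 1 lower in Stab2-high cells (6.25% each, against 1.2% and 1.42% of all genes), 0 passed in Fndc1-high cells, and *Sulf1*, an enzyme that removes sulfate from heparan sulfate, was higher in Cldn11-high cells at 1.17. Among 16 matrix receptors, 1 was higher and 3 lower (18.75%) in Stab2-high cells, the lower ones including the syndecans *Sdc4* at -1.37 and *Sdc1* at -1.27. *Sdc4* was higher in Cldn11-high cells at 1.94, and *Itga3*, a laminin-binding integrin chain, lower in Fndc1-high cells at -1.43. The direction of *Sdc4* in Stab2-high cells was thus opposite to that in Cldn11-high cells.

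Likeness between matrix genes was measured as the Spearman correlation over cells thinned to 20000 reads (about 790), a description in which the points share libraries and pooled tissue. Over all pairs of 35 genes found in at least 5% of cells the median rho was 0.02, from -0.32 to 0.45, so most pairs had little relation at this depth. *Fndc1* and *Tnxb* were most alike, at 0.45 over all cells, and at 0.30 within Fndc1-high cells, 0.26 within the rest, 0.25 within Cldn11-high cells and 0.05 within Stab2-high cells. *Tnc* and *Thbs1* followed at 0.35, with 0.34 within the rest and 0.16 within Stab2-high cells. The lowest rho was that of *Fndc1* and *Sparc*. Because *Fndc1* was also a gate, its correlations with *Tnxb* and *Sparc* over all cells are not independent of their ratios in Fndc1-high cells.

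The third pair was *Col4a1* and *Col4a2*, whose products assemble into the same trimer, at 0.33 over all cells and between 0.25 and 0.37 within each group. The genes lie head to head on chromosome 8, and their first 22 transcribed bases overlap on opposite strands (chr8:11312805-11312826, GRCm38.p6). Reads from the overlap could be counted for either gene if strand was not used.

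**Figure D5:**
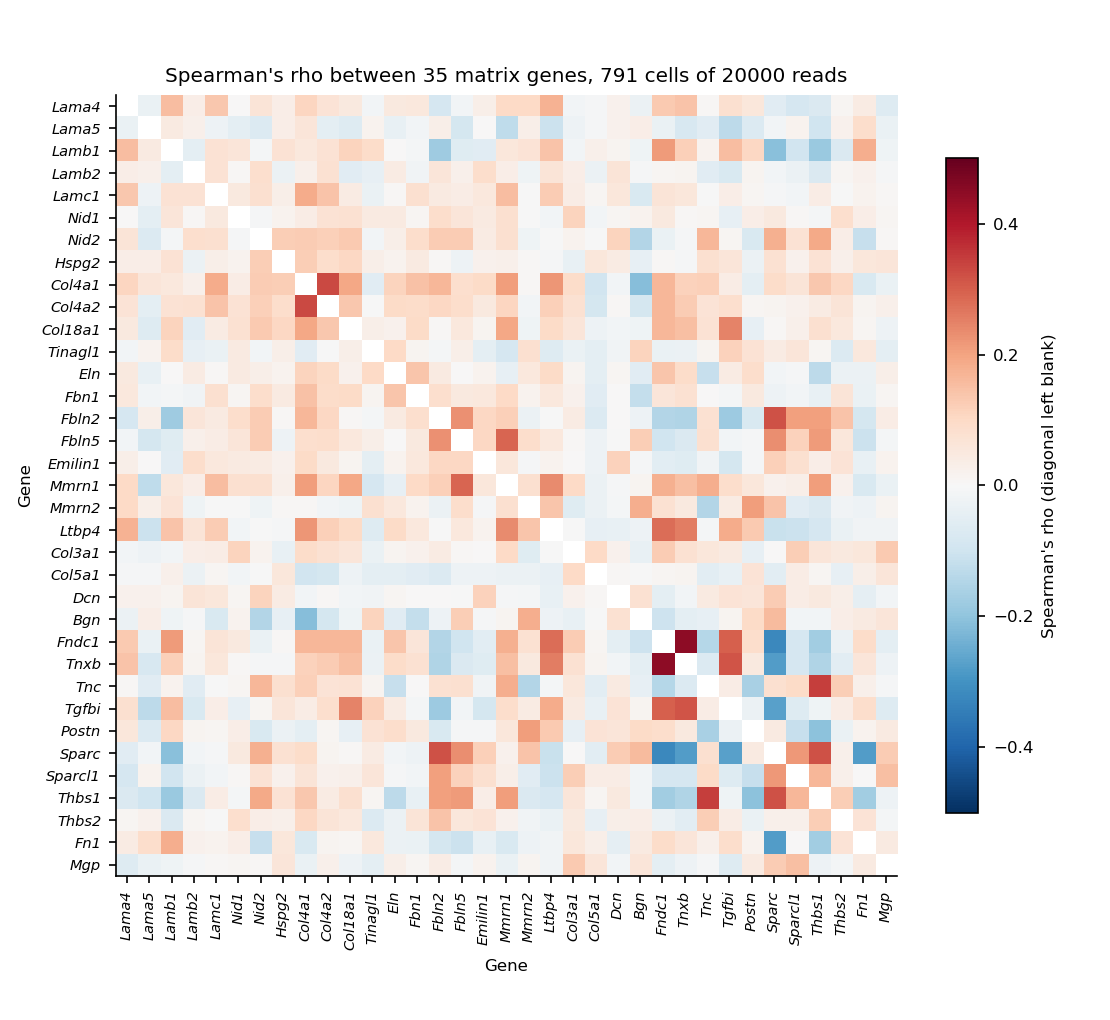
Spearman's rho for each pair of 35 matrix genes over cells thinned to 20000 reads, with the diagonal left blank and colour from blue (negative) to red (positive). The darkest red is *Fndc1* with *Tnxb* (0.45) and the darkest blue *Fndc1* with *Sparc* (-0.32).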

How the data were processed

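Single adult LECs were measured by Smart-seq3. The authors mapped reads to mm10 in STAR, counted reads in genes by featureCounts of Subread, kept cells of at least 2000 genes and at most 10% mitochondrial reads in Seurat 4.1.0, and deposited natural log values, the natural log of 1 plus reads per 10000 of the cell. The study's methods name a base of 2, whereas the values returned 10000 reads in every cell only with base e. The annotation, the strand setting and the handling of multi-mapping reads are not given in the sources used here, and nothing states that molecular identifiers were counted, so amplified copies may repeat. Of 1536 wells listed, 842 were in the matrix, with 7433 to 3524358 reads each, and a transcript can be missed at low depth.

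Read numbers were restored from the deposited natural log values (100% whole within 0.01). Every column was used. Levels are reads per 10000, and per kilobase of merged GENCODE exons on GRCm38 between genes. Groups are cells with a value above 1 for exactly 1 gate gene: 232 Stab2-high, 111 Fndc1-high, 109 Cldn11-high and 339 rest cells. Ratios used a pseudocount of 0.1 over genes found in at least 5% of cells, with a call at a log2 ratio of 1. Intervals are exact Clopper–Pearson intervals at 95%, for counting error only, and the limit beside a share of 0 is 3 counts. Doublets were not called. Single cells were sorted into wells, although 52 wells held reads of *Xist* together with genes of the Y chromosome. The source of these reads was not tested. The ratio calculation was tested on simulated counts in which 200 genes were changed by a log2 ratio of 1.5 either way. The median recovered was 1.34 for Stab2-high, 1.36 for Fndc1-high and 1.36 for Cldn11-high cells. Of the changed genes, 94.5%, 88.5% and 92% passed the bound. They were drawn from more widely read genes, so sparse genes such as *Sparcl1*, *Dcn* and *Mgp* were not covered. The other steps were not tested on simulated data. Promoters are from RefSeq on GRCm38.p6.

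Members, lists and rules were chosen with earlier results of these data known. Genes named were the 10 highest per kilobase, those past the bound in each comparison (at most 8 of the 42 and 5 from the other lists), those found in under 5% of cells and the 3 most alike pairs. Other genes given with values were chosen after their values were seen. Alternatives were other pseudocounts, no gene filter, other gates, thinning to 20000 reads and cells of at least 3000 genes. A difference of natural log means was also used. Others left out cells with fibroblast, blood endothelial or immune markers, wells with *Xist* and Y chromosome reads, or the highest cells of each gene. Python 3.11.15, NumPy 2.4.6, pandas 2.3.3, SciPy 1.17.1 and matplotlib 3.10.9 were used.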

Additional observations from a re-analysis of the deposited data

How the results depend on the processing

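The ratios of 16 matrix genes and comparisons were recomputed under 10 settings listed at the start and 6 added after seeing the data, and none of these 16 reversed. The setting without a gene filter could not change a ratio, so it is no check of these 16. Leaving out cells with at least 2 fibroblast markers removed 1 Cldn11-high cell and 1 cell of the rest, so it could change ratios in Stab2-high and Fndc1-high cells very little. Ratios of other genes named above were not recomputed. *Thbs1* (1.69 to 2.32) and *Sparc* (1.48 to 1.97) in Stab2-high cells and *Tnxb* in Fndc1-high cells (1.31 to 2.73) stayed past the bound in all 16, the bound being the natural log of 2-fold for the difference of natural log means. The other 13 crossed it in 1 to 6 settings. In Stab2-high cells they ran from 0.22 to 3.22 for *Sparcl1*, 0.58 to 1.33 for *Nid2*, 0.74 to 1.34 for *Fbln2*, 0.49 to 1.04 for *Tnc*, -2.04 to -0.61 for *Tgfbi*, -2.64 to -0.40 for *Postn* and -1.33 to -0.62 for *Lamb1*. In Fndc1-high cells they ran from 0.85 to 1.27 for *Tgfbi*, -2.60 to -0.08 for *Mgp*, -1.74 to -0.85 for *Sparc* and -1.33 to -0.28 for *Tnc*, and in Cldn11-high cells from 0.16 to 3.46 for *Dcn* and 0.15 to 3.69 for *Mgp*. Counts of matrix genes moved as follows, where only the larger relative changes are listed. A count that is not listed may also have changed. The shares over all genes under each setting are not given beside them. The counts thus show only how far the calls depended on the setting, and nothing particular to matrix genes. With a pseudocount of 1, Stab2-high cells had 2 higher and 1 lower, Fndc1-high cells 0 lower and Cldn11-high cells 1 higher. With 0.01, Stab2-high cells had 8 higher, Fndc1-high cells 6 lower and Cldn11-high cells 1 lower. With overlapping gates Stab2-high cells had 1 lower. With gates above 2, Fndc1-high cells had 4 higher and 5 lower and Cldn11-high cells 5 higher and 7 lower. With gates at any read, Stab2-high cells had 1 lower, Fndc1-high cells 1 higher and Cldn11-high cells 1 lower. With the difference of natural log means, Stab2-high cells had 3 higher and 0 lower, Fndc1-high cells 0 lower and Cldn11-high cells 0 higher. With cells of at least 3000 genes Cldn11-high cells had 1 higher. Of the added settings, without the highest cell of each gene they had 1 lower, without the 2 highest 0 higher and 1 lower, and without cells holding any fibroblast marker 1 higher. With values above 1 as found, 12 of the 42 genes were in at least 50% of cells and 1.19% of cells held a fibrillar collagen, which was 4.68% after thinning. The cause of these moves was not tested. Depth limits the shares of cells with a read. No paired analysis was possible because no mouse or plate is given for a cell, and for the same reason none could be left out.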
